A study of Rattus norvegicus with 24 samples.

Results

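Shox2, Tcf7l2, Lef1, Prkcd, Zic1, Rgs16, Oxt, Avp and Nkx2-4 are 9 genes known from the thalamus or hypothalamus, regions that lie next to the hippocampus, and here their levels were followed through 24 hippocampal RNA sequencing libraries. They were selected by symbol, with their values in these libraries known from earlier results, and they make up 9 of the 20318 features in the deposited table. All 9 were present, and all 9 had a mean of at least 10 normalised counts, as did 16119 features in all. Because the genes were chosen from measured values, their pattern over libraries is given as a description without a test.

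The libraries came from female rats that were 6 months old at surgery. In SHAM (n = 7) the ovaries were kept and vehicle was given for 7 weeks, and in OVX (n = 7) the ovaries were removed and vehicle was given for 7 weeks. In Prevention (n = 5) ovary removal was followed by 5 weeks of the estrogen E2 (estradiol), and in Treatment (n = 5) by 3 weeks of vehicle and then 2 weeks of E2. No label says that each library is a separate animal, so p-values measure the spread between these libraries only. All values below are normalised counts, the unit of the deposited table, unless a log2 scale is named. They are not corrected for transcript length, so levels are compared between libraries and never between genes.

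The thalamus is a relay of sensory and motor signals to the cortex, and its neurons are patterned by transcription factors that many of them keep in adult life. Shox2, a homeobox factor, and Tcf7l2 and Lef1, which act at the end of the Wnt pathway together with beta-catenin, are used as markers of thalamic neurons. The hypothalamus makes the peptide hormones oxytocin (Oxt) and vasopressin (Avp) in large neurons of the paraventricular and supraoptic nuclei, from which the peptides reach the posterior pituitary. Zic1 encodes a zinc finger factor of the dorsal neural tube and forebrain midline, Prkcd a protein kinase C of the delta type, Rgs16 a protein that speeds the switching off of G proteins, and Nkx2-4 a homeobox factor of the developing hypothalamus.

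Promoter windows from RefSeq (build GRCr8), from 250 bases before to 50 bases after the start, matched 7 of the 9 genes. The windows of the peptide pair are shown because the groups differ in estradiol, with capitals marking GGTCA and TGACC, the arms of the palindromic estrogen response element read on both strands. The Oxt window lies at chr3:138235504-138235803 on the plus strand and the Avp window at chr3:138248473-138248772 on the minus strand.
Oxt: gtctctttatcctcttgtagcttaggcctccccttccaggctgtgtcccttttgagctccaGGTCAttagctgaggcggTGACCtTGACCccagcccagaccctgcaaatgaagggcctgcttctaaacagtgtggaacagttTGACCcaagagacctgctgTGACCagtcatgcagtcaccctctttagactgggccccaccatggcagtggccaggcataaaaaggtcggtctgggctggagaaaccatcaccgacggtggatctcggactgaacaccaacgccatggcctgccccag
Avp: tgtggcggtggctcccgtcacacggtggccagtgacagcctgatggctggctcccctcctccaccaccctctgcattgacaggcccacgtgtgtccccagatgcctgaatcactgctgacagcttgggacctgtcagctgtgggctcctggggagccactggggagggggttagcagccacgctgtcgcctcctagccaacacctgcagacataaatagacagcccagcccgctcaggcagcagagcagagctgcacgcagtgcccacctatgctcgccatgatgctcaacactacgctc
Oxt held 5 such arms and Avp 0. At least 5 arms were found in 0.0926% of 33469 promoter windows of the same length, and at least 1 arm in 40.5%. The arrangement of the full element, GGTCA and TGACC with 3 bases between them, was in 0.0269% of windows and in 0 of the 7 matched here. The windows of Tcf7l2 and Lef1 are shown with capitals for CTTTG and CAAAG, the core letters bound by the TCF/LEF family that these genes encode, again on both strands. The Tcf7l2 window is chr1:264791085-264791384 and the Lef1 window chr2:222340463-222340762, both on the plus strand.
Tcf7l2: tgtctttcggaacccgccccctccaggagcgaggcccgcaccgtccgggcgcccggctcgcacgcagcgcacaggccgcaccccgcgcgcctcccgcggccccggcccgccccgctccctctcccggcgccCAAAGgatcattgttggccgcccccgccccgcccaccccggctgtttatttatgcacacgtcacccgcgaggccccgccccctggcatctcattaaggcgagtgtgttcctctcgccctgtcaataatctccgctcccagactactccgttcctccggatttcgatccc
Lef1: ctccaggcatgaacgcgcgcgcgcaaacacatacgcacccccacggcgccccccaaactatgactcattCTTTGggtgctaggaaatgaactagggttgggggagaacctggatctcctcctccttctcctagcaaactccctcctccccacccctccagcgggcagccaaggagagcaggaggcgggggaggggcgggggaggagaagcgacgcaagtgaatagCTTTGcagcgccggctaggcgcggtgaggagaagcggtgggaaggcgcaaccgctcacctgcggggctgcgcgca
Tcf7l2 held 1 core and Lef1 2, against at least 1 in 53.8% and at least 2 in 20.2% of all windows. In the 4 windows shown, arms and cores did not overlap, since no window held both. A match of letters is a description of the window and not a binding site.

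Shox2 had the widest spread between libraries of all 16119 tested genes, with an SD of 3.39 on the log2 scale against a median SD of 0.157. In SHAM it ran from 0 to 695 with a median of 2.75, and in OVX from 0 to 446 with a median of 7.25. The 5 Prevention libraries measured 771, 0.818, 8.86, 733 and 2.10, and the 5 Treatment libraries 0, 1.58, 7.31, 444 and 2.04. Every group thus held both libraries near 0 and at least 1 library at 444 or more, and the groups overlapped. Below, a library is called high for a gene where it measured at least 4 times the gene's median over the 24 libraries, which for Shox2 is 4.67. By this rule 8 libraries were high for Shox2, namely SHAM 5 and 7, OVX 2, 4 and 6, Prevention 1 and 4, and Treatment 6. The lowest of them, SHAM 7, stood at 8.56 times the median and the next library below, Prevention 3, at 1.90 times. In the other 16 libraries the values corresponded to at most 9 reads, as estimated from the smallest step of each library. In bulk RNA, more cells of a type, more RNA per cell and a larger piece of a neighbouring tissue cannot be told apart.

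Tcf7l2 was measurable in every library and had a narrower range. It ran from 286 to 3357 in SHAM (median 307) and from 278 to 1579 in OVX (median 379). Prevention measured 1867, 391, 327, 2043 and 330, and Treatment 377, 357, 376, 1573 and 310. SHAM 5, OVX 2, Prevention 1 and 4 and Treatment 6 were high, from 4.29 to 9.15 times the median of 367, and all 5 were also high for Shox2. OVX 6 came next at 2.11 times. Lef1, its relative in the TCF/LEF family, reached 987 in SHAM 5, 793 in Prevention 1, 722 in Prevention 4 and 598 in OVX 2 against a median of 272. Its highest library stood at 3.62 times the median, so 0 libraries were high for Lef1 by the rule, but the libraries at its top were those at the top of Tcf7l2.

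Prkcd, the kinase gene, ran from 520 to 4671 in SHAM (median 748) and from 503 to 3914 in OVX (median 1137). Prevention measured 4771, 815, 503, 5138 and 796, and Treatment 1175, 421, 844, 3584 and 1241. The same 5 libraries were high for Prkcd as for Tcf7l2, the lowest at 4.28 times the median of 837 and the next, OVX 4, at 1.89 times. Rgs16 reached 1515 in Prevention 4, 1232 in SHAM 5, 1201 in OVX 2, 1109 in Prevention 1 and 1092 in Treatment 6, against a median of 388 and a next value of 471. These are again the 5 libraries, although the largest was 3.90 times the median. SHAM 5, OVX 2, Prevention 1 and Prevention 4 were among the top 5 libraries of all of Shox2, Tcf7l2, Lef1, Prkcd and Rgs16. Each of SHAM and OVX held 1 of these 4 libraries, Prevention held 2 and Treatment 0. Treatment 6 was in the top 5 of Shox2, Tcf7l2, Prkcd and Rgs16. It missed that of Lef1, with 444 against 484 in OVX 6.

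**Figure D1:**
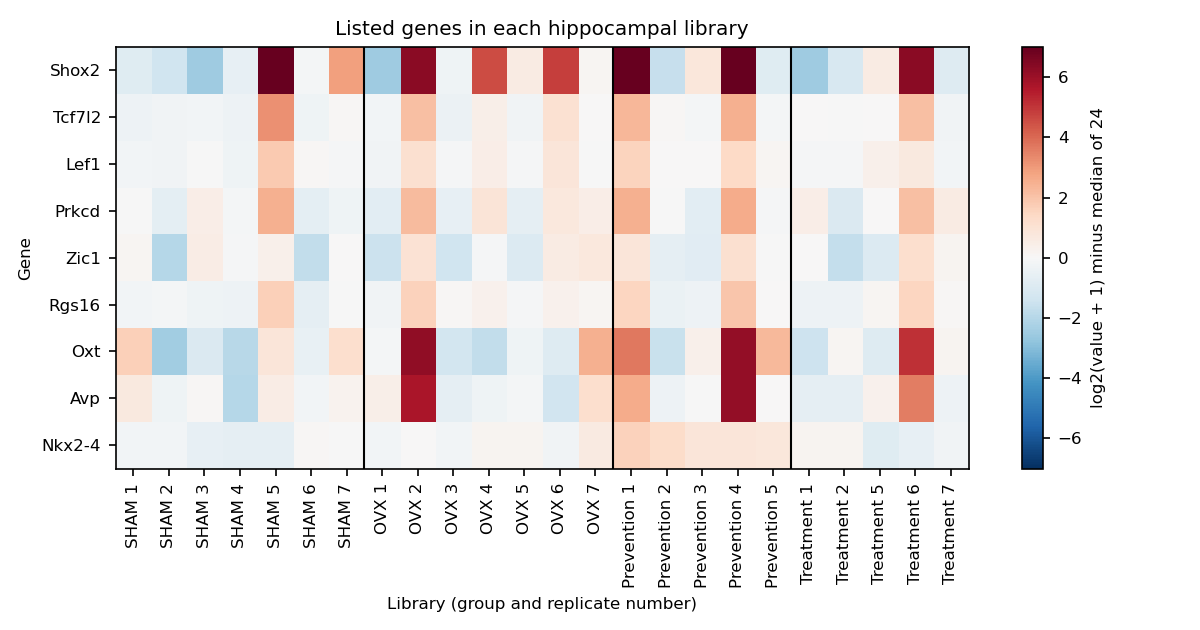
Normalised counts of the 9 genes (rows) in the 24 libraries (columns, by group) on the log2(value + 1) scale, each gene relative to its median, with colours that saturate at the ends of the scale. Shox2 is dark red in SHAM 5, OVX 2, Prevention 1 and 4 and Treatment 6, Tcf7l2, Lef1, Prkcd and Rgs16 are raised in the same columns, and Oxt and Avp are dark in OVX 2, Prevention 4 and Treatment 6 and near their median in SHAM 5.

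Oxt ran from 11.6 to 215 in SHAM (median 45.5) and from 19.2 to 4955 in OVX (median 53.8). Prevention measured 886, 22.0, 84.6, 4825 and 329, and Treatment 23.8, 72.7, 34.9, 2368 and 75.6. OVX 2 was highest at 74.4 times the median of 66.6, and 6 libraries were high in all, with OVX 7 (377) and Prevention 5 (329) the lowest of them. SHAM 1 came next at 215, or 3.23 times the median. No SHAM library was high for Oxt, while the other groups held from 1 to 3 each.

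Avp, whose gene is next to Oxt on chromosome 3, ran from 12.6 to 87.8 in SHAM and from 20.6 to 2828 in OVX. Prevention measured 332, 41.0, 51.6, 3926 and 55.3, and Treatment 34.0, 33.7, 65.4, 652 and 42.3. OVX 2, Prevention 1 and 4 and Treatment 6 were high, all of them also high for Oxt, Shox2, Tcf7l2 and Prkcd. OVX 7, with Oxt at 377, had an Avp of 120, or 2.24 times its median, and Prevention 5, with Oxt at 329, had an Avp of 55.3 against a median of 53.4. Oxt and Avp thus stood high together in 4 libraries, which is 66.7% of those high for Oxt and 100% of those high for Avp. The genes on either side of the pair, Mrps26 (1073 to 1756) and Ubox5 (585 to 828), were high in 0 libraries.

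No library was high for a receptor of these peptides. Oxtr, the oxytocin receptor, measured 18.5 in OVX 2, 26.3 in Prevention 4 and 41.2 in Treatment 6 within a range of 14.2 to 59.6. The vasopressin receptor genes Avpr1a, Avpr1b and Avpr2 ran from 32.4 to 85.2, 3.09 to 18.6 and 59.8 to 118.

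SHAM 5 separated the thalamic genes from Oxt and Avp. It had the highest Tcf7l2 and Lef1 of all libraries, while its Oxt was 119 and its Avp 78.2. OVX 4 and OVX 6 were high for Shox2 (134 and 160) with Oxt at 19.2 and 35.2, both under the Oxt median. OVX 7 and Prevention 5 showed the reverse, with Oxt raised and Shox2 at 5.26 and 2.10. The libraries therefore did not lie on 1 axis, as the plots of gene pairs show.

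**Figure D2:**
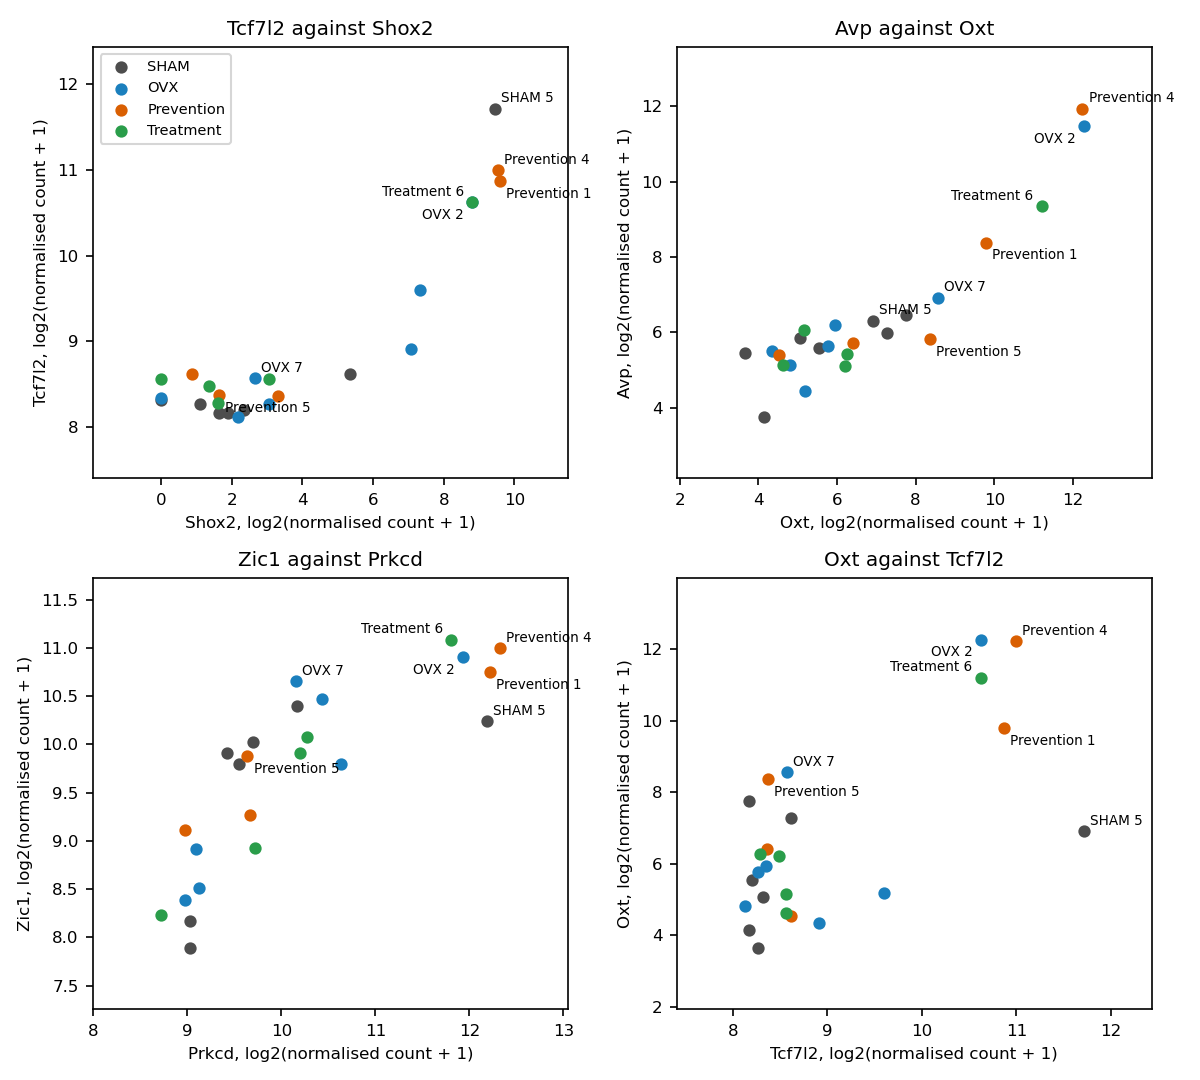
Each point is 1 library, coloured by group, with both axes as log2(normalised count + 1). Tcf7l2 climbs with Shox2 only at the right of its panel, Avp climbs with Oxt, Zic1 and Prkcd are related over the whole range, and SHAM 5 has the highest Tcf7l2 (3357) with an Oxt of 119.

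The 4 highest libraries of Zic1, Treatment 6, Prevention 4, OVX 2 and Prevention 1, were among the 5 that were high for Tcf7l2 and Prkcd. Zic1 ran from 237 to 1351 in SHAM (median 964) and from 334 to 1917 in OVX (median 891). Prevention measured 1718, 615, 553, 2042 and 938, and Treatment 961, 300, 484, 2172 and 1078. Its highest library, Treatment 6, stood at 2.29 times the median of 950, so its spread lay mostly in libraries below the median. OVX 7 (1613) and SHAM 3 (1351) exceeded SHAM 5 (1211), although Shox2 measured 5.26 in OVX 7 and 0 in SHAM 3.

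Because libraries fell into those high and those low for Shox2, correlations on the log2 scale are given within each, as descriptions that share libraries and normalisation. Over the 16 libraries low for Shox2, Pearson's r was 0.87 between Prkcd and Zic1, 0.66 between Oxt and Avp, 0.47 between Tcf7l2 and Lef1, and 0.18 between Tcf7l2 and Zic1. Over the 8 high libraries the same pairs gave 0.71, 0.96, 0.93 and 0.65. Tcf7l2 and Oxt gave 0.11 and 0.56. Prkcd and Zic1 thus moved together also in libraries with hardly any Shox2. The low libraries span a narrow range of Tcf7l2, which lowers r, and the difference between the low and high libraries was not tested.

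For each gene the 5 most similar genes over the 24 libraries were taken, by Pearson's r on the log2 scale. For Tcf7l2 these were Plcb4, a phospholipase C, Cpne9 and the Wnt ligand Wnt9b (0.97 each), Ramp3, a partner of calcitonin-type receptors (0.96), and the actin-binding Synpo2 (0.95). Plcb4, Wnt9b, Cpne9 and Ramp3 were also among the 5 nearest to Lef1 (0.93 to 0.94), behind Vipr2, a receptor for vasoactive intestinal peptide (0.95). For Prkcd they included Plcb4 (0.96), Gpr153 and the pacemaker channel gene Hcn4 (0.95 each), and Adra1b (0.94). Shox2 was nearest to Synpo2 (0.92), Rab37 (0.91), Nexn (0.90), and Wnt3 and Rgs3 (0.89 each), and Rgs16 to Pygl (0.97), Rab37 (0.96), and Nexn, Pcp4 and Synpo2 (0.95 each). Zic1 had another set, which included the homeobox gene Six3 (0.95), its relatives Zic2 (0.94) and Zic4 (0.92), and Fgf1 (0.92). Oxt and Avp were both nearest to Trh, the gene of thyrotropin-releasing hormone (0.88 each), and both had Ddah1 and Rcsd1 among their 5 (0.83 to 0.87). The others were Gpx3 (0.84) and Qprt (0.83) for Oxt, and Podxl2 (0.83) and Grin2d (0.82) for Avp. The 5 nearest to Nkx2-4 were Trnp1 (0.82), Serp1 (0.79), Yrdc and Gpr27 (0.78 each) and Marcks (0.77), none of which was among the 5 nearest to another of the 9 genes. Most of these values rest on the libraries high for Shox2, which include all 5 that were high for Tcf7l2 and Prkcd. Leaving them out narrows the range of genes that peak there and lowers r. The values of r below therefore cannot be compared between genes. Over the 16 libraries low for Shox2, r lay between -0.02 and 0.54 for the genes named beside Shox2, Tcf7l2, Lef1 and Rgs16. It was 0.49 to 0.85 for those named beside Prkcd, 0.32 to 0.80 beside Oxt and 0.48 to 0.58 beside Avp. For the genes named beside Zic1 r was 0.90 to 0.93, and for those beside Nkx2-4 it was 0.68 to 0.82.

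Marker lists of neighbouring tissues were set beside these genes. The lists were chosen with earlier results of these data known. The 4 libraries used next were those shared by the top 5 of Shox2, Tcf7l2, Lef1, Prkcd and Rgs16. The shares of list genes are therefore a description and not a test. The thalamus list shares no gene with the 9, but its Synpo2, Ramp3 and Zic4 were among the genes nearest to some of them. It had 15 members, and 13 of them (86.7%) had their highest value in 1 of SHAM 5, OVX 2, Prevention 1 and Prevention 4, against 19.0% of all tested genes. This was not particular to the thalamus list, since it held for 4 of 5 midbrain and brainstem genes, 6 of 8 striatum genes, 3 of 6 habenula genes and 7 of 14 hypothalamus genes, but for 0 of 15 choroid plexus genes, among those that were tested. Gbx2, a homeobox factor of the thalamus, measured 88.8 in SHAM 5, 88.4 in Prevention 4, 81.6 in OVX 2, 70.1 in Treatment 6 and 44.2 in Prevention 1, against a median of 2.75. Treatment 5 was also high for Gbx2, at 18.8, with a Shox2 of 7.31. Slc17a6, the glutamate transporter of subcortical neurons, measured 4332 in SHAM 5 and 3614 in Prevention 4 against a median of 861, and Synpo2 measured 994 in Prevention 4 against 130. Not every list gene followed, and Tnnt1 measured 150 in OVX 7, 137 in OVX 2 and 33.3 in SHAM 5. Lhx9 and Vamp1 were highest in SHAM 5 (326 and 16508) but below their medians of 196 and 10776 in OVX 2 (151 and 10502). Zic4 was highest in Treatment 6 (573) but below its median of 252 in SHAM 5 (209). From 6 to 8 of the 15 list genes were at least 2 times their median in each of the 5 libraries high for Tcf7l2, 2 were so in OVX 6, and 0 in SHAM 7. The summed level of the list ran from 27154 to 51040 in SHAM, 27342 to 39267 in OVX, 29222 to 45073 in Prevention and 27160 to 38976 in Treatment.

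OVX 2 differed from the other libraries high for Oxt and Avp in its lateral hypothalamic peptides. Pmch, the gene of melanin-concentrating hormone, measured 5944 in OVX 2, 521 in Treatment 6, 45.1 in Prevention 4 and 45.2 in Prevention 1, against a median of 23.1. OVX 1, which was not high for Oxt or Avp, was also high for Pmch at 110, or 4.77 times the median. Hcrt, the orexin gene, measured 711 in OVX 2 and no more than 89.6 in any other library. Trh was high in all 4 and also in SHAM 5, at 209. In the 4 it measured 681 in OVX 2, 649 in Prevention 4, 617 in Treatment 6 and 384 in Prevention 1 against a median of 47.6. Isl1 followed with 174, 131, 100 and 88.8 in that order. Otp, a homeobox factor needed for oxytocin and vasopressin neurons and chosen after its values were seen, measured 82.8, 72.5, 17.8 and 14.7 in that order, against a median of 1.88. OVX 7 had the highest Nkx2-1 (181), a factor of the ventral hypothalamus, with Trh at 114 and Otp at 10.5. The summed level of the hypothalamus list, over 14 genes with a mean of at least 10, ran from 771 to 1299 in SHAM, 757 to 9687 in OVX, 782 to 2365 in Prevention and 690 to 2691 in Treatment. The hypothalamic factor Rax was at 0 in most libraries and did not exceed 3.02.

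In SHAM 5 genes of other regions were raised as well. Gata3, a factor of midbrain and brainstem neurons, measured 249 there against a median of 40.2, with 97.9 in OVX 6. The dopamine transporter gene Slc6a3 measured 89.7 in SHAM 5 against a median of 35.5, and the tachykinin gene Tac1 543 against 171. Neither reached 4 times its median. Tac1 was also raised in other libraries, among them OVX 2 (357), Prevention 1 (351) and Treatment 6 (302). Pax7 measured 49.5 in OVX 6 and 32.2 in SHAM 5, and the habenula factor Pou4f1 20.6 in SHAM 5 and 12.1 in OVX 6, both chosen after their values were seen. No other library exceeded 2.10 for Pax7 or 5.54 for Pou4f1.

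Choroid plexus genes moved with the listed genes in some libraries and not in others. Ttr, the transthyretin gene that this tissue expresses at very high levels, had a median of 6237 and measured 73531 in OVX 2, 71606 in Treatment 6, 68774 in Prevention 1 and 46280 in Prevention 4. In SHAM 5 it was 551. Of the 15 choroid genes in the table, 13 were high in Prevention 1 and 0 in SHAM 5, although Shox2 measured 771 and 695 there. SHAM 7, with the highest Ttr (136652), had a Shox2 of 40.0, a Tcf7l2 of 392 and a Prkcd of 684. The summed level of the choroid list ran from 5712 to 208036 in SHAM and 5025 to 111805 in OVX. In Prevention it ran from 6184 to 111286 and in Treatment from 4666 to 110315. A choroid score was a covariate in 1 alternative limma fit of the groups. There Nkx2-4 differed by 1.01 between Prevention and OVX (adjusted p = 0.0278) and by 1.38 between Prevention and SHAM (adjusted p = 0.00541). The score's own relation to the listed genes was not tested.

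**Figure D3:**
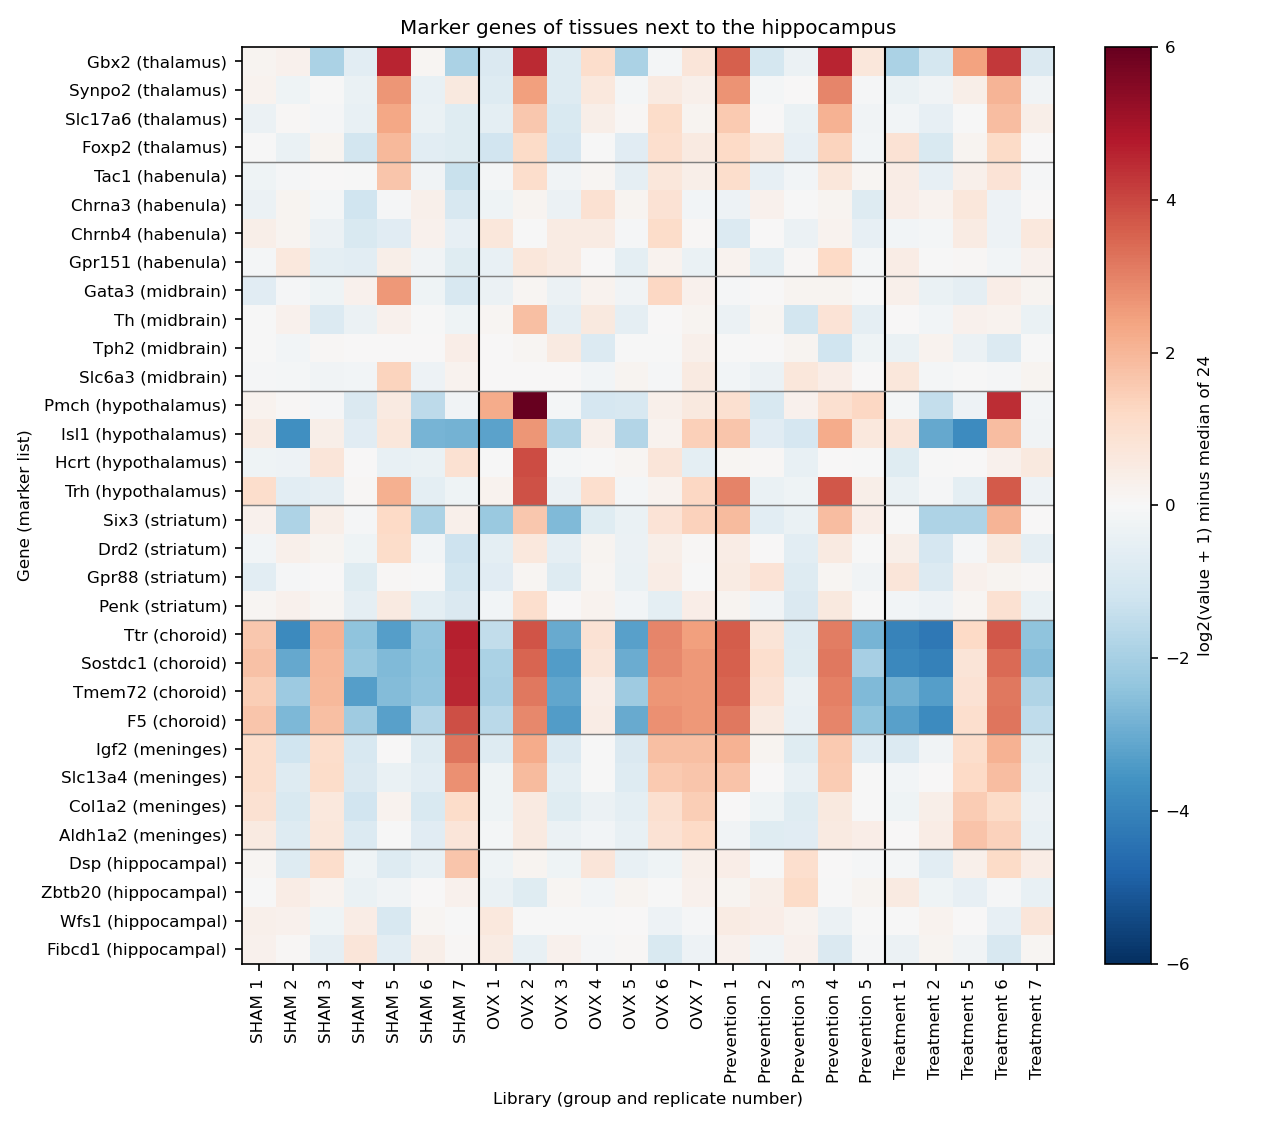
Up to 4 marker genes of each neighbouring tissue (rows, with the list in brackets) in the 24 libraries (columns, by group), on the log2(value + 1) scale relative to the gene's median, with colours that saturate at the ends of the scale. Gbx2 and Synpo2 are red in SHAM 5, OVX 2, Prevention 1 and 4 and Treatment 6, and Gbx2 also in Treatment 5. Pmch is darkest red in OVX 2 and Treatment 6 and Gata3 in SHAM 5, and the choroid genes are darkest in SHAM 7 and blue in SHAM 5.

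Of 14 listed markers of the labelled tissue, 12 had a mean of at least 10. The others, Lct (1.04 to 24.1) and Spink8 (1.16 to 10.2), were near the floor. Among the 12, Dsp had the widest range on the log2 scale, from 90.1 to 490. Prox1, a factor of dentate granule cells, ran from 2035 to 4180, C1ql2 from 1729 to 3624, and the CA1 markers Fibcd1 from 3048 to 9848 and Wfs1 from 6917 to 22620. Wfs1 was lowest in SHAM 5 and Fibcd1 lowest in Treatment 6 (3048), OVX 6 (3136) and Prevention 4 (3264). Prevention 1, the library with the highest Shox2, stood above the median for both. Its Fibcd1 was 7011 against a median of 5954, and its Wfs1 18657 against 13459. In the cerebellum list the Purkinje cell gene Pcp2 did not exceed 8.45 and En2 22.4, while Cbln1, which other regions express too, reached 1142. In the pituitary list Cga did not exceed 2.16 and Gh1 2.11, while Prl reached 37.2 in Prevention 5 and Lhb ran from 59.6 to 165.

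The question of whether the 9 genes differed between the study's groups was addressed with 1 limma fit over the 24 libraries on the log2(value + 1) scale, with Benjamini-Hochberg adjustment over all 16119 tested genes and a threshold of 0.05. Only Nkx2-4 passed in any comparison. Between OVX and SHAM 0 of the 9 genes passed, as did 0% of all genes by limma, with 0 of the 9 and 1007 of all at an unadjusted p under 0.05. Between Prevention and OVX 1 of 9 passed, against 0.304% of all genes, and between Prevention and SHAM 1 of 9, against 0.354%. At an unadjusted limma p under 0.05, the first held 1 of the 9 and 3006 of all genes. The second held 1 of the 9 and 2139 of all genes. Between Treatment and SHAM 0 of 9 passed by limma, against 0.0062%, with 0 of the 9 and 983 of all at an unadjusted p under 0.05. Between Treatment and OVX 0 of 9 and 0% of all genes passed by limma, with 0 and 1159 at an unadjusted p under 0.05, and between Treatment and Prevention 0 of 9 and 0%, with 1 and 868. These comparisons share groups and are not independent.

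The other 8 genes overlapped between the groups in all 6 comparisons. Nkx2-4 did not overlap between Prevention and each other group, as was the case for 1.86% of all tested genes between Prevention and OVX, 2.48% between Prevention and SHAM and 1.2% between Treatment and Prevention. Of the 9 genes, 0 were without overlap between OVX and SHAM (0.0248% of all genes), Treatment and OVX (0.298%) or Treatment and SHAM (0.484%). Among the 8 genes other than Nkx2-4, the smallest adjusted p in limma was 0.438, for Oxt between Prevention and SHAM. There the means were 1229 ± 2039 (SD, n = 5) and 84.9 ± 78.8 (SD, n = 7) and the log2 difference was 2.50 (SE 1.34). For Shox2 the corresponding means were 303 ± 410 (SD, n = 5) and 106 ± 260 (SD, n = 7), a log2 difference of 1.87 (SE 1.89). The median log2 difference of the 9 genes was 0.70 for Prevention against SHAM, 0.52 for Prevention against OVX, 0.28 for OVX against SHAM, 0.15 for Treatment against SHAM, -0.10 for Treatment against OVX and -0.54 for Treatment against Prevention. The medians of all tested genes lay between -0.00235 and 0.0043. Prevention held 2 of the 5 libraries high for Tcf7l2 among its 5, SHAM and OVX 1 each among 7, and Treatment 1 among 5.

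**Figure D4:**
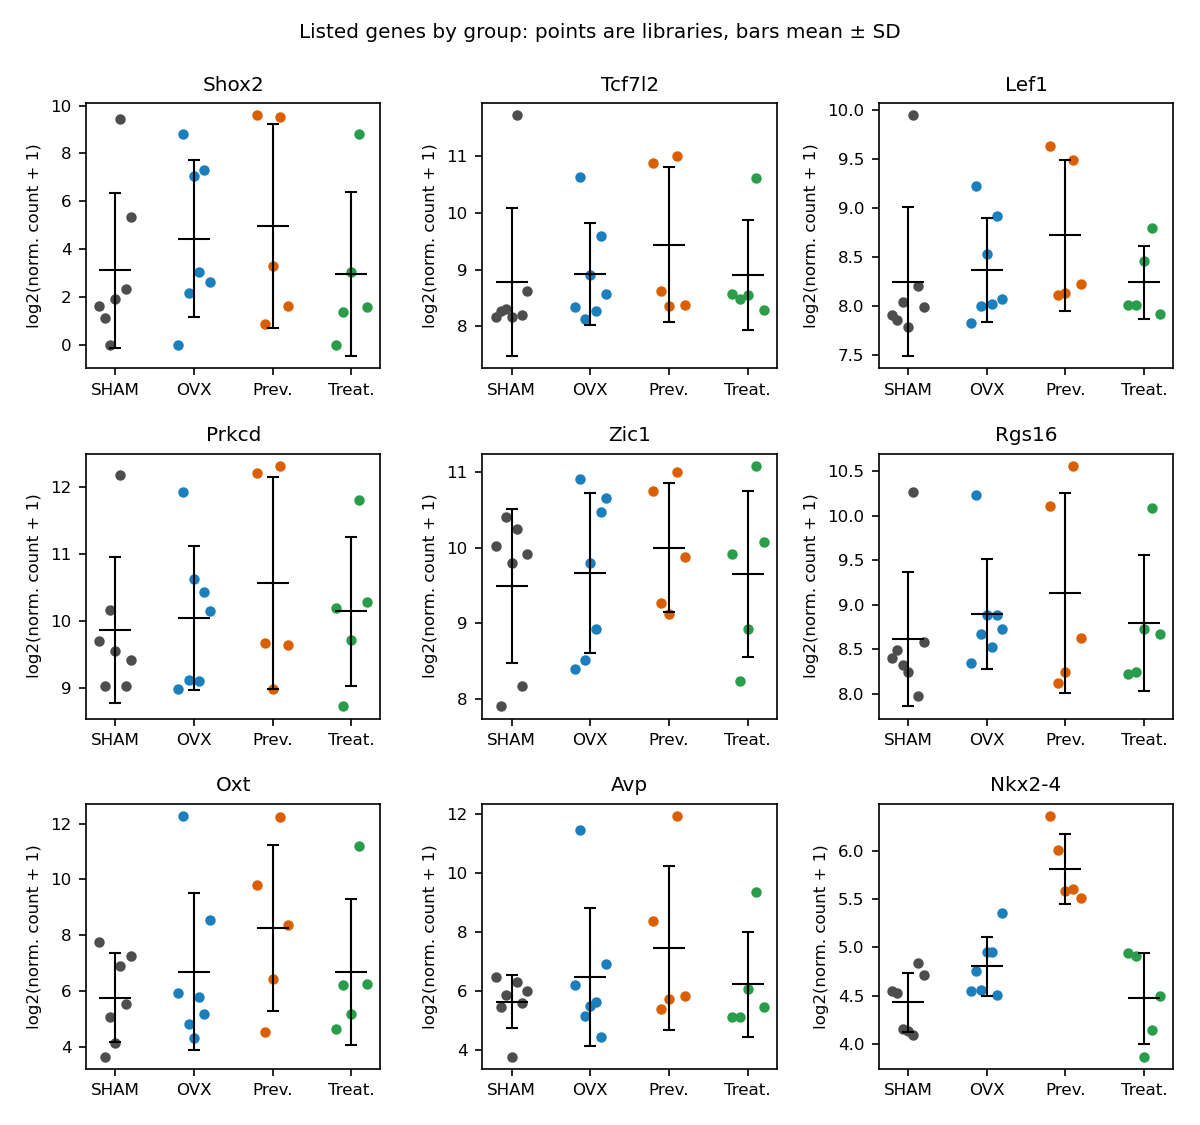
Each panel shows 1 gene, with log2(normalised count + 1) on the vertical axis and the 4 groups on the horizontal axis (Prev. for Prevention, Treat. for Treatment), points for libraries and bars for the mean ± SD. For 8 genes the groups overlap, while the 5 Prevention libraries of Nkx2-4 (44.7 to 81.3) lie above all other libraries.

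In the marker lists no gene passed. Of 131 genes in 13 lists, 127 were in the table and 104 were tested, and limma called 0 of them in the 6 comparisons. From 2 to 8 of the 104 had an unadjusted limma p under 0.05 in each, against 868 to 3006 of all 16119 tested genes. The 8 were between Prevention and OVX, where 3006 of all genes were so. The smallest adjusted p was 0.106, for a thalamus gene between Prevention and OVX. The median log2 difference of the 15 thalamus genes was 0.321 between Prevention and OVX and 0.319 between Prevention and SHAM, against 0.00081 and 0.00289 over all genes. For the 14 tested hypothalamus genes it was 0.035 and 0.310. In the TCF/LEF and Wnt target list, 0 of 7 tested genes passed. Its members Axin2, a feedback inhibitor of the Wnt pathway, and Ctnnb1, the gene of beta-catenin, ran from 922 to 1232 and from 9744 to 11372, and Tcf7 and Tcf7l1, the relatives of Tcf7l2 and Lef1, were high in 0 libraries.

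Nkx2-4 did not follow the other hypothalamic genes. It ran from 16.1 to 27.7 in SHAM (median 22.0) and from 21.8 to 39.9 in OVX (median 26.1). Prevention measured 81.3, 63.3, 46.9, 47.6 and 44.7, and Treatment 29.7, 29.1, 13.6, 16.7 and 21.5. All 5 Prevention libraries lay above all 19 others, the nearest of which was OVX 7 at 39.9. OVX 2, with an Oxt of 4955, had an Nkx2-4 of 26.1, and Treatment 6, with an Oxt of 2368, had 16.7. OVX 2 and Treatment 6, among the highest for Oxt, were thus near or below the Nkx2-4 median of 25.6, whereas Prevention 1 and 4 were high in Oxt and above that median. Pearson's r between these genes was 0.36 over the 16 libraries low for Shox2 and 0.27 over the 8 high ones.

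The mean of Nkx2-4 was 56.8 ± 15.6 in Prevention (SD, n = 5), 27.5 ± 6.48 in OVX (SD, n = 7), 21.0 ± 4.61 in SHAM (SD, n = 7) and 22.1 ± 7.24 in Treatment (SD, n = 5). In the limma fit the log2 difference was 1.01 between Prevention and OVX (SE 0.216, adjusted p = 0.0393) and 1.38 between Prevention and SHAM (SE 0.216, adjusted p = 0.00519). The gene was listed with its Prevention values known, so these p-values, which rest on the same Prevention libraries, describe the fit and are no independent test. Another gene, LOC257642, separated 7 libraries, all 5 of Prevention and Treatment 1 and 2, at 16.8 to 19.7 on the log2 scale, from the other 17 at 14.0 to 15.2. These 7 also had more estimated reads (39.6 to 53.5 M, for mega, against 26.6 to 40.2 M). With this set of libraries as a term in the fit, the Nkx2-4 difference was 0.25 (adjusted p = 0.999) between Prevention and OVX and 0.62 (adjusted p = 0.936) between Prevention and SHAM by limma. Within Treatment, replicates 1 and 2 of that set measured 29.7 and 29.1, and replicates 5, 6 and 7 measured 13.6, 16.7 and 21.5. In the set, Prevention measured 44.7 to 81.3. All of Prevention belongs to the set and no SHAM or OVX library does, so in these comparisons the set and Prevention are separated only through the 5 Treatment libraries.

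**Figure D5:**
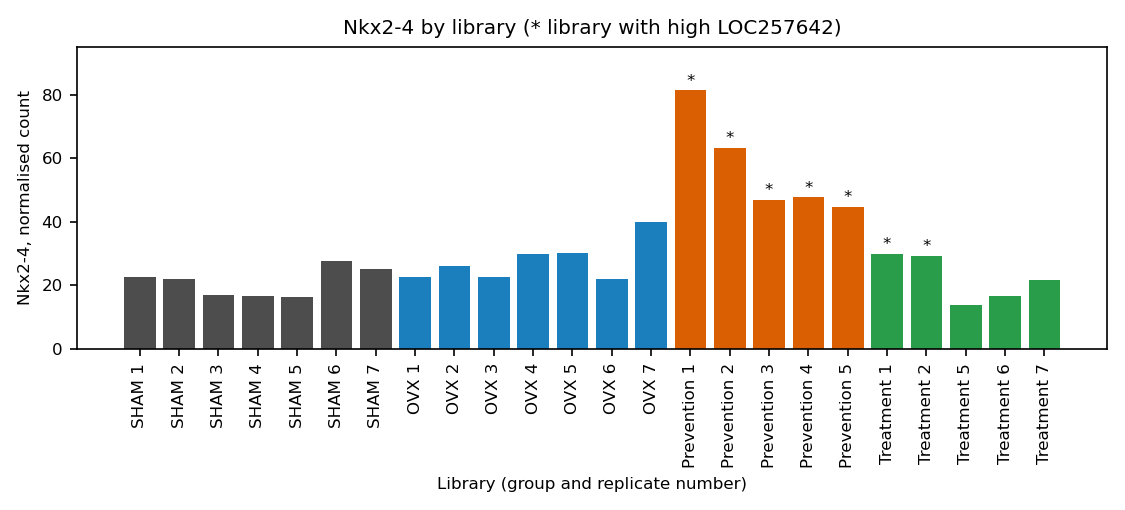
Bars give the Nkx2-4 normalised count in each library, coloured by group, with an asterisk over the 7 libraries in which LOC257642 was high. The 5 Prevention bars (44.7 to 81.3) are the tallest, and within Treatment the 2 marked bars (29.7 and 29.1) exceed the other 3.

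Leaving out each library in turn, the Nkx2-4 difference between Prevention and OVX ran from 0.87 to 1.10 and passed in 12 of 24 limma fits (adjusted p from 0.019 to 0.112). It did not pass without any 1 of Prevention 1, 2, 3 or 4, OVX 1, 2, 3 or 6, or SHAM 1, 2, 4 or 6. Between Prevention and SHAM it passed in 24 of 24 (1.25 to 1.46, adjusted p from 0.00248 to 0.0309). Without the 8 libraries high for Shox2, the differences were 0.85 (adjusted p = 0.286) and 1.26 (adjusted p = 0.192) by limma, in a fit of 16 libraries chosen after seeing the data.

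Over the whole table, the sum of a library's normalised counts lay between 35.4 and 38.8 M, and the reads per library, estimated from the smallest step of each column, from 26.6 to 53.5 M. A single read was worth 0.69 to 1.38 normalised counts, so that Shox2, Otp, Pax7 and Pou4f1 in most libraries rested on a few reads or none. Such low values are not read as absence.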

How the data were processed

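RNA from 24 hippocampal samples was sequenced, with group and replicate read from each label. Per the submitters' processing notes kallisto 0.43 and DESeq2 (no version) were used; build and annotation: not given in the sources used here. Deposited with the series was 1 table of normalised counts, a signal per gene and library that the authors name as normalised; its values are not whole, and read counts could not be recovered, so no count test was run and counting intervals are not given.

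Values were taken as log2(normalised count + 1), which understates differences of low genes. Genes with a mean of at least 10 entered 1 limma 3.58.1 fit (R 4.3.3, empirical Bayes with trend, a mean per group, 6 contrasts, two-sided, Benjamini-Hochberg). The procedure was tested on simulated data. The 9 genes, the marker lists and the tests were chosen with earlier results of these data known. Named in the text are the 9 genes, the 5 genes most alike to each, and up to 4 members of each list with the largest range; members outside that rule illustrate a list, and some of the genes most alike are not reported here. Alternatives were other pseudocounts (0.5 and 8), filters and scalings, fits of 2 groups, robust and weighted fits, a replicate block, the library set, the choroid score, and leaving out each library; leaving out the libraries high for Shox2 and the split correlations were chosen after seeing the data. Promoter windows came from RefSeq, whose build may differ from that of the values. Figures used Python 3.11.15 and matplotlib 3.10.9.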

Additional observations from a re-analysis of the deposited data

Results flagged for a closer look

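In 36 combinations of gene and group, the gap between the most extreme library and its nearest neighbour was divided by the range of the group on the log2 scale and set against Dixon's critical value for the group's size. The critical value was passed in 11. Chance passes about 1 in 20 groups of genes taken without regard to their values, but these 9 genes were chosen with their values known and the same libraries recur, so the 11 are a description and not a test. SHAM 5 stood above the rest of its group for Tcf7l2 (0.873), Lef1 (0.807), Rgs16 (0.735) and Prkcd (0.639). Treatment 6 did so for Tcf7l2 (0.881), Avp (0.779), Oxt (0.753) and Rgs16 (0.726), and OVX 2 for Rgs16 (0.713) and Avp (0.648). For Avp, SHAM 4 stood below the rest of its group (0.624), at 12.6. In Prevention 2 libraries stood high together, a pattern that a gap of 1 library does not pick up, and no gene passed there.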

How the results depend on the processing

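The count of listed genes called by limma was 0 in 13 of 13 alternatives and 24 of 24 fits without 1 library for OVX against SHAM, Treatment against OVX and Treatment against SHAM. For Prevention against OVX it was 1, and 0 under no filter, a mean of at least 100, a fit of only the groups compared, library weights, the replicate block, the library set as a term, and without the libraries high for Shox2; without 1 library it ran from 0 to 1. For Prevention against SHAM it was 1, and 0 under a mean of at least 100, the library set as a term, and without the libraries high for Shox2; it was 1 in 24 of 24 fits without 1 library. For Treatment against Prevention it was 0, and 1 with a pseudocount of 8, robust empirical Bayes or library weights; without 1 library it ran from 0 to 1, being 1 without Treatment 1, Treatment 2 or OVX 7. At a mean of at least 100, 8 of the 9 genes were tested and Nkx2-4 was not; the cause of the other shifts was not tested. The Nkx2-4 differences of Prevention from OVX and SHAM kept their direction in each alternative that tested the gene; directions of the other genes were not compared. Deviations from the group means were correlated between libraries of different groups. Same-numbered libraries had a median r of -0.12 over 30 pairs, 8 of them over 0.1. Libraries of other numbers had 0.04 over 184 pairs, 73 of them over 0.1. This gave no sign of pairing by number, but a correlation over all tested genes cannot exclude a shared block. With the replicate block the Nkx2-4 difference was 1.06 (limma, adjusted p = 0.114) between Prevention and OVX. Between Prevention and SHAM it was 1.44 (limma, adjusted p = 0.0101). With 2 times the median as the bound, 4 libraries were high for Lef1, 5 for Rgs16, 3 for Zic1 and 2 for Nkx2-4; with 8 times, 1 was high for Tcf7l2 and 0 for Prkcd. Values under 3 reads cannot be ordered.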

Other observations

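Of the 10 genes in the meninges list, 2 were highest in SHAM 7, the library with the most Ttr. Igf2, a growth factor of meninges and choroid plexus, measured 10680 there against a median of 1139, and the sulfate transporter gene Slc13a4 1979 against 292. The rest of the meninges list was highest in other libraries. Col1a1, Bgn, Slc6a13 and Foxc1 were highest in OVX 7, Dcn, Col1a2 and Aldh1a2 in Treatment 5, and Lum in OVX 3. In OVX 2, 4 hypothalamic genes beside Pmch, Hcrt and Trh were highest of all libraries, namely Cartpt, the gene of a feeding-related peptide (849 against a median of 131), Magel2 (663 against 257), Isl1 (174) and Otp (82.8). Six3, among the genes most like Zic1, measured 336 in Treatment 6, 308 in Prevention 1, 296 in Prevention 4, 248 in OVX 2 and 211 in OVX 7, against a median of 80.8 and a lowest value of 12.2 in OVX 3. Cbln1, a synaptic organiser that the thalamus and cerebellum express, was highest in Prevention 4 at 1142 against a median of 366, while the cerebellar granule cell gene Gabra6 did not exceed 23.9.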
